A study of Mus musculus with 154 samples.

Results

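Liver expression was compared in mice that carry A/J-derived chromosome 3, A/J-derived chromosome 10, both chromosomes or neither, to ask whether the combined substitution changed each gene by the sum of both single substitutions. The mice were chosen by their strain labels, which list the sire first, and number 41, beside 113 mice of the other 20 strains of the series. They comprised 20 mice of the host strain C57BL/6J (B6), 8 mice of (B6 X B6.A3)F1, 8 mice of (B6.A10 X B6)F1 and 5 mice of the double chromosome substitution strain (CSS) (B6.A10 X B6.A3)F1. B6.A3 and B6.A10 are inbred strains in which chromosome 3 or chromosome 10 of B6 is replaced by that of A/J, so (B6 X B6.A3)F1 inherited A/J chromosome 3 from the dam, (B6.A10 X B6)F1 inherited A/J chromosome 10 from the sire, and the double CSS inherited both from the same parents. All mice were 5 weeks of age, male per the methods of the study, and fasted overnight before total RNA of the caudate lobe of the liver was sequenced. Each substituted chromosome was heterozygous, so that effects that need 2 A/J copies could not be seen, and a substitution spans a whole chromosome, so that no single variant can be named. Below, the chromosome 3 CSS is (B6 X B6.A3)F1 and the chromosome 10 CSS is (B6.A10 X B6)F1.

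Epistasis is the dependence of the effect of one locus on the genotype at another. In a cross of CSSs it is measured as the interaction, the log2 difference of the double CSS from B6 minus the sum of the log2 differences of both single CSSs from B6, with 0 when both substitutions multiply expression independently. An interaction below 0 means that the double CSS lay below that sum, and one above 0 that it lay above it. The gene group that appears most often here is the interferon-stimulated genes. Interferons signal through cell-surface receptors to transcription factors, among them a complex with STAT2 and IRF9 that binds the interferon-stimulated response element (ISRE), whereas factors activated by interferon gamma bind the gamma-activated site (GAS). Their targets include guanylate-binding proteins and immunity-related GTPases that attack vacuoles of intracellular pathogens, IFIT proteins that bind foreign RNA, chemokines and the machinery of antigen presentation. In liver, hepatocytes, Kupffer cells and endothelial cells all express such genes at a basal level without infection.

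The 250 bases before the transcription start of 6 interferon-inducible genes with an interaction below 0 are shown because the ISRE or the GAS letters lie close to the start in 5 of them. Capitals mark matches, on either strand, to the ISRE letters (GAAA, any 2 bases, GAAA) or the GAS letters (TTCNNNGAA), and all sequences are from RefSeq on GRCm38.p6, written 5′ to 3′ on the strand of the gene. Gbp3 lies at chr3:142559794-142560043 (plus strand), Gbp7 at chr3:142530086-142530335 (plus strand), Igtp at chr11:58199306-58199555 (plus strand), Apol9a at chr15:77411081-77411330 (minus strand), Ifit1 at chr19:34640639-34640888 (plus strand) and Cxcl9 at chr5:92328080-92328329 (minus strand).
Gbp3: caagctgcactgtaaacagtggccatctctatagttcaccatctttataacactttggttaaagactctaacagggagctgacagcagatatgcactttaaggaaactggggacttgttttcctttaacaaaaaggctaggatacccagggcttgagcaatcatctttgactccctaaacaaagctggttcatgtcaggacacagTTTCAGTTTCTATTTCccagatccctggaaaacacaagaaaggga
Gbp7: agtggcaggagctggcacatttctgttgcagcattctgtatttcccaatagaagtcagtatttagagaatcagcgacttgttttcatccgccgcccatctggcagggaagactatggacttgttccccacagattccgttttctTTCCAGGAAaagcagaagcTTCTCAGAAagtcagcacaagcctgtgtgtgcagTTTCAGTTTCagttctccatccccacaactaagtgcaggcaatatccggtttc
Igtp: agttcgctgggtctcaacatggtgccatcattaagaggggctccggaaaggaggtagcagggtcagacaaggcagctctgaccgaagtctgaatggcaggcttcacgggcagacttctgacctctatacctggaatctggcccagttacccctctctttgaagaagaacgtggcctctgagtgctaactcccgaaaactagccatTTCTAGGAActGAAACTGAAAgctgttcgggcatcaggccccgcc
Apol9a: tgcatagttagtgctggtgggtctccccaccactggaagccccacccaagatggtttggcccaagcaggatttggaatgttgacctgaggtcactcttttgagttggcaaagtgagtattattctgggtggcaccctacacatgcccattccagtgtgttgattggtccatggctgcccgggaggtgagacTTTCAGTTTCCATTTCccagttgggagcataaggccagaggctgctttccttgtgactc
Ifit1: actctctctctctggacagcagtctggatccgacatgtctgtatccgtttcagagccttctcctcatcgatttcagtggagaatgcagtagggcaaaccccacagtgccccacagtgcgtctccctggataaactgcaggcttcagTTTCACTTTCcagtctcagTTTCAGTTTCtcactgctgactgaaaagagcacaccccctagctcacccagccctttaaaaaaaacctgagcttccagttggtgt
Cxcl9: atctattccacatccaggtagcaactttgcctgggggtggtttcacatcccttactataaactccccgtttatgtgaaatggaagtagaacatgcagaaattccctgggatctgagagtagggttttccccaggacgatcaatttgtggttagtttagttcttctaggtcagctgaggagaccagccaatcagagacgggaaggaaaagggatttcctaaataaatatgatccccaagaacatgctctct
Gbp3, Apol9a and Ifit1 each held 2 ISRE matches, which overlap in Gbp3 and Apol9a, Gbp7 held 1 ISRE match and 2 GAS matches, and Igtp held 1 of each. Cxcl9 had no match to these letters in this window. Of the genes tested, 8920 had a promoter of this length, and 243 of those (2.72%) held the ISRE letters. Among genes with a called interaction below 0 (the calls are defined below), 13 of 61 with a promoter (21.3%) held the ISRE letters, against 0 of 42 with a called interaction above 0. The listed interferon-stimulated genes held them in 15 of 28 promoters (53.6%), and those of the list with a called interaction in 6 of 11 (54.5%). The share was thus similar in the called members and in the whole list. The GAS letters, which are shorter, were present in 534 of the 8920 promoters (5.99%), in 6 of those 61 (9.84%) and in 1 of those 42 (2.38%). A match is a description of the letters and not evidence of binding.

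Total counts per mouse ranged from 6752637 to 25630807 in B6, from 12402342 to 29437186 in the chromosome 3 CSS, from 10209102 to 26900169 in the chromosome 10 CSS and from 13583337 to 28523393 in the double CSS. The tissue label was checked against 10 hepatocyte markers, all measured, which summed to 98078 to 173602 CPM (counts scaled to the library size after TMM normalization) in the 41 mice. The strain labels were checked with genes chosen in the single CSSs alone. Commd2, a chromosome 3 gene of the COMMD family, stood at 15.9, 16.6, 15.6, 14.9 and 14 CPM in double mice 1 to 5 and at 14.1 to 18.2 (median 15.4) in the chromosome 3 CSS, against 8.06 to 11.7 (median 9.13) in B6 and 6.89 to 9.68 (median 8.51) in the chromosome 10 CSS. Vnn3, a pantetheinase gene on chromosome 10, stood at 59.3, 56.3, 50.5, 42.1 and 43.8 CPM in the double mice and at 46.5 to 61.7 (median 55.8) in the chromosome 10 CSS, against 66.2 to 113 (median 96.3) in B6 and 77.1 to 91.0 (median 87.4) in the chromosome 3 CSS. For both genes the 5 double mice lay outside the range of B6 and of the strain without that substitution.

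With edgeR's quasi-likelihood test on the counts of all mice of the series and 5 surrogate variables, 156 of 13289 genes (1.17%) had an interaction of chromosomes 3 and 10 at a Benjamini-Hochberg adjusted p below 0.05, the threshold of a call throughout. The interaction was below 0 in 98 genes (0.737%) and above 0 in 58 (0.436%). It was called in 15 of 1347 genes on chromosomes 3 and 10 (1.11%) and in 1.18% of 11942 genes elsewhere. Against B6, 492 genes (3.7%) were called in the chromosome 3 CSS, 258 higher (1.94%) and 234 lower (1.76%), which were 11.9% of the genes on chromosome 3 and 3.22% of those elsewhere. In the chromosome 10 CSS 882 (6.64%) were called, 487 higher (3.66%) and the others lower (2.97%), which were 11.6% of the genes on chromosome 10 and 6.4% of those elsewhere. In the double CSS 106 (0.798%) were called, 53 higher and 53 lower (0.399% each). The share called in the double CSS was 0.324% without surrogate variables, 1.23% with 10 of them, 0.376% without double mouse 5 and 0.527% without double mouse 3, and that in the chromosome 3 CSS was 0.918% without surrogate variables and 1.75% in the 41 mice alone. The double CSS has fewer mice than either single CSS, with a median standard error of 0.099 against 0.082 and 0.089 on the log2 scale, and its mice are compared with the same B6 mice as theirs.

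In genes with a called interaction the double CSS lay close to B6. The 98 genes below 0 had median log2 differences from B6 of 0.327 in the chromosome 3 CSS, 0.345 in the chromosome 10 CSS and -0.006 in the double CSS, beside 0.001, 0 and 0.005 over all genes tested. The 58 genes above 0 had medians of -0.28, -0.316 and 0.001. The interaction subtracts both single effects, so that the signs in the single strains are partly fixed by the choice of these genes, and the values are given as a description. Of the 156 genes 5 were also called in the double CSS against B6, beside 0.798% of all genes tested. These 5, Tbc1d30, Adh6-ps1, Ifi44, Hsd3b7 and Pcgf2, are described with their groups. Without surrogate variables 71 interactions were called, 61 of them among the 156, and without double mouse 1 there were 81. In the 41 mice alone there were 244, and by the DESeq2 Wald test 238.

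**Figure D1:**
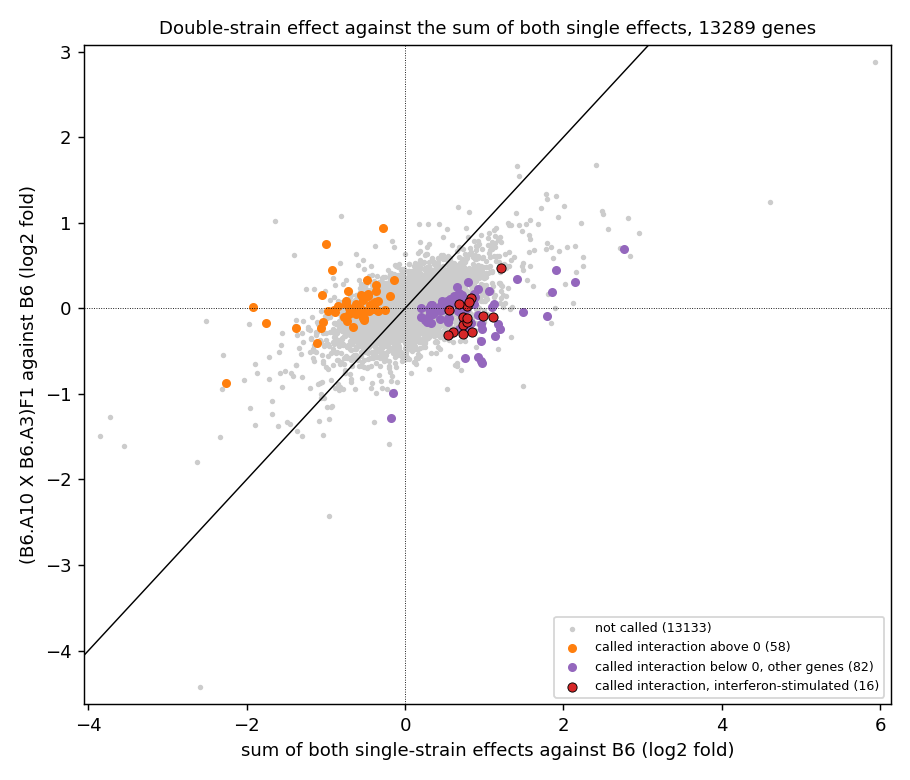
Log2 fold difference of the double CSS from B6 (vertical axis) against the sum of the log2 fold differences of both single CSSs from B6 (horizontal axis) for 13289 genes. The diagonal line marks additivity on the log2 scale; the 98 genes called below 0 lie under it and the 58 called above 0 lie over it, most of them near 0 on the vertical axis, and the 16 interferon-stimulated genes called are outlined.

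Interferon-stimulated genes lay above B6 in each single CSS, some of them past the test, and near B6 in the double CSS. Of 40 listed genes 39 were tested, and 16 had a called interaction, all below 0, beside 98 of 13289 genes (0.737%) called below 0 overall. All 39 interactions were below 0, with a median of -0.712, beside 6438 of 13289 genes below 0 and a median of 0.007 over all genes. The 39 estimates rest on the same mice, 5 of them double, so that the members are not separate observations. In the chromosome 3 CSS 10 members were called higher (median 0.267), beside 1.94% of all genes. In the chromosome 10 CSS 14 were called higher (median 0.291), beside 3.66%, with none called lower in either single CSS. In the double CSS the median was -0.063, and Ifi44 and Stat2 were the 2 members called, both higher, beside 0.399% of all genes. Without surrogate variables 6 members had a called interaction, with a median of -0.734, and without double mouse 1 there were 10. In the 41 mice alone 12 members were called, and leaving out 1 further mouse lowered this to 6 without B6 mouse 1 and to 7 without B6 mouse 13, B6 mouse 16 or mouse 5 of the chromosome 3 CSS.

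The level of these genes was also taken mouse by mouse. The mean log2(CPM + 0.5) over the 39 genes, given as a difference from the mean of the 20 B6 mice, was -0.283, -0.136, 0.001, -0.189 and 0.107 in double mice 1 to 5. It ranged from -0.038 to 0.547 (median 0.219) in the chromosome 3 CSS, from 0.112 to 0.444 (median 0.248) in the chromosome 10 CSS and from -0.557 to 0.418 (median 0.068) in B6. Most mice of both single CSSs lay within the range of B6, so that their rise over B6 is one of medians. Every double mouse lay below every mouse of the chromosome 10 CSS and within the range of B6. All 5 were below the median of the chromosome 3 CSS, and 3 were below its lowest mouse.

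**Figure D2:**
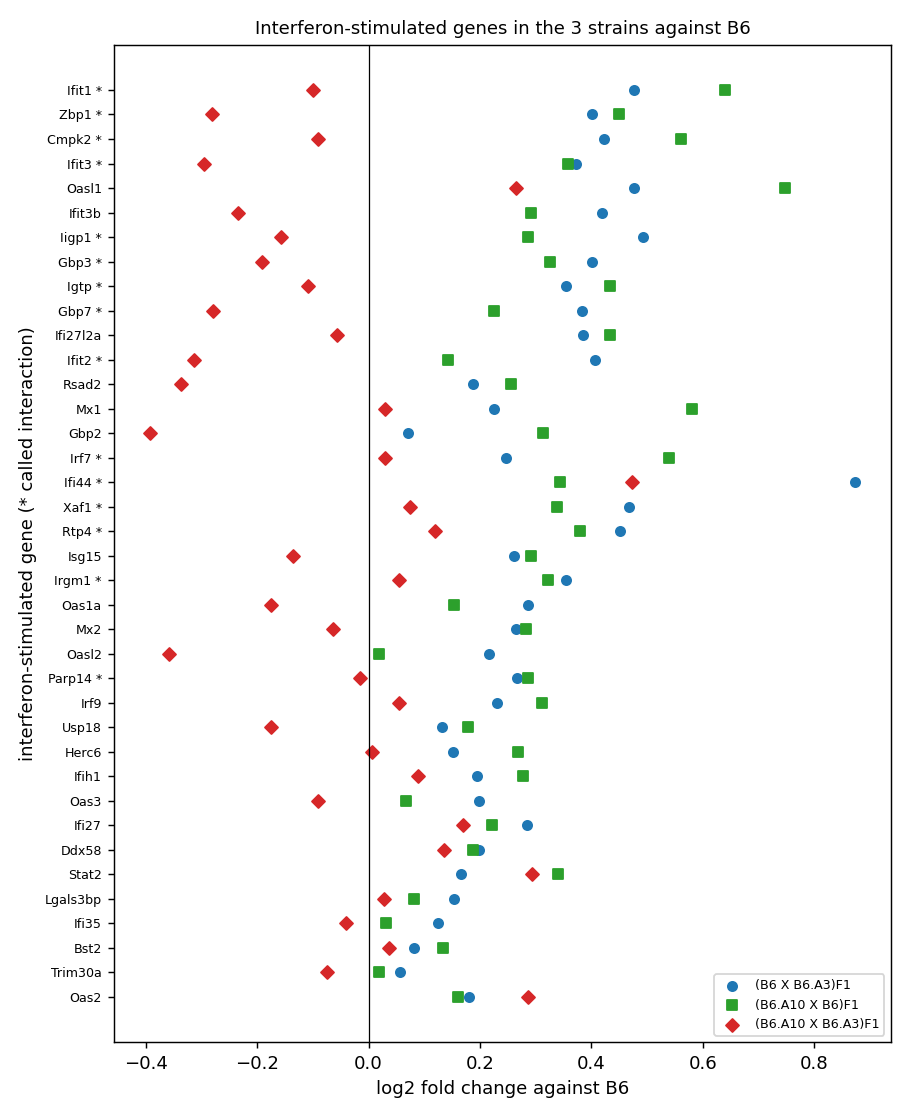
Log2 fold change from B6 of 38 interferon-stimulated genes tested in the chromosome 3 CSS (blue circles), the chromosome 10 CSS (green squares) and the double CSS (red diamonds), with an asterisk on the 15 of them with a called interaction. Both single CSSs lie above 0 for all 38 genes, whereas 22 of the 38 lie below 0 in the double CSS.

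Among the transcription factors of the pathway, Irf7, which amplifies type I interferon production, stood at 11.8, 14.4, 12.4, 11.9 and 16.7 CPM in the double mice, 4 of which were below the lowest mouse of the chromosome 10 CSS (16.6 to 23.7 (median 19.3)). Its interaction was -0.76 (SE 0.161) at an adjusted p = 0.00548 (edgeR), and 0.152 without surrogate variables. Stat2, the partner of IRF9 in that complex, lies on chromosome 10 and departed from this pattern. It stood at 24.7, 25.8, 32.6, 31.4 and 29.7 CPM in the double mice against 16.6 to 30.9 (median 23.8) in B6 and 26.9 to 37.0 (median 30.3) in the chromosome 10 CSS, was called higher than B6 in the double CSS by 0.29 (SE 0.0942) (adjusted p = 0.0442), and had an interaction of -0.21 (SE 0.136) that was not called (adjusted p = 0.530, edgeR).

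The guanylate-binding proteins and immunity-related GTPases, interferon-inducible GTPases that act on pathogen vacuoles, included the gene with the smallest interaction p of all, Gbp11. Gbp11 (ENSMUSG00000092021, chromosome 5, 105323042 to 105346472, minus strand) stood at 3.16, 2.36, 2.02, 1.32 and 2.38 CPM in double mice 1 to 5, from 19 to 76 counts, against 2.92 to 6.40 (median 4.69) in the chromosome 3 CSS, 3.27 to 6.65 (median 5.34) in the chromosome 10 CSS and 1.28 to 4.0 (median 2.48) in B6. Every double mouse was below the lowest of the chromosome 10 CSS, 4 were below the lowest of the chromosome 3 CSS, and none left the range of B6. The interaction was -1.88 (SE 0.287) at an adjusted p = 1.51e-05 by edgeR's quasi-likelihood test, set against rises of 0.76 and 1.03 in the single CSSs and a difference of -0.09 in the double CSS (adjusted p = 0.932). Over the 13 alternatives tried the adjusted p lay between 2.72e-07 and 0.00125. Gbp6, Gbp9 and Gbp10, neighbours of Gbp11 on chromosome 5 that were picked out after their values were seen, had interactions of -1.44, -0.50 and -1.66 at adjusted p = 0.00866, 0.0417 and 0.0156 (edgeR). Near-identical members of this cluster can share reads, so that the split among them is uncertain.

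Gbp3 and Gbp7 lie on chromosome 3 itself, so that their maternal copy is of A/J origin in the chromosome 3 CSS and the double CSS. Gbp3 (ENSMUSG00000028268, chromosome 3, 142560026 to 142573209, plus strand) stood at 3.24, 4.66, 6.24, 4.79 and 4.63 CPM in the double mice, against 4.70 to 9.79 (median 7.54) in the chromosome 3 CSS, 5.73 to 9.68 (median 7.50) in the chromosome 10 CSS and 3.53 to 9.08 (median 5.68) in B6. All 5 double mice were below the median of both single CSSs, and 4 were below the lowest of the chromosome 10 CSS. Its interaction was -0.92 (SE 0.196) at an adjusted p = 0.00515 (edgeR). Gbp7 (ENSMUSG00000040253, chromosome 3, 142530342 to 142550149, plus strand) stood at 7.31, 9.63, 12.4, 11.8 and 11.8 CPM in the double mice, all below the lowest mouse of the chromosome 10 CSS (13.1 to 20.7 (median 16.6)), with an interaction of -0.89 (SE 0.192) at an adjusted p = 0.00515 (edgeR). Gbp2, in the same chromosome 3 cluster, had an interaction of -0.78 that was not called (adjusted p = 0.0717), but it was lower in the double CSS than in the chromosome 10 CSS, with a log2 difference of -0.71 at an adjusted p = 0.0138 (edgeR).

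Of the immunity-related GTPases, Iigp1 was the most highly expressed, at 193, 253, 273, 254 and 321 CPM in the double mice against 299 to 519.96 (median 426) in the chromosome 3 CSS, 306 to 367 (median 348.5) in the chromosome 10 CSS and 165.4 to 479 (median 322) in B6. In each single CSS comparison 4 of the 5 double mice were below the lowest mouse. The interaction was -0.94 (SE 0.180) at an adjusted p = 0.00113 (edgeR), and 0.0529 without surrogate variables. Irgm2 (ENSMUSG00000069874, chromosome 11, 58199618 to 58222782, plus strand), which regulates the recruitment of other family members to membranes, stood at 15.8, 19.9, 25.1, 20.9 and 30.9 CPM in the double mice, 22.4 to 53.6 (median 34.0) in the chromosome 3 CSS, 26.6 to 47.6 (median 34.5) in the chromosome 10 CSS and 13 to 42.7 (median 30.1) in B6. Its interaction was -1.01 (SE 0.186) (adjusted p = 0.000753), and 4 double mice were below the lowest of the chromosome 10 CSS. Irgm1, Igtp and Ifi47 of the same family had interactions of -0.62, -0.90 and -1.09 at adjusted p = 0.0107, 0.0148 and 0.0136 (edgeR). The annotated starts of Igtp and Irgm2 lie close together on the same strand of chromosome 11, so that reads could be split between them. Igtp and Irgm1 were not called without surrogate variables (adjusted p = 0.182 and 0.124), and Ifi47 was not called without double mouse 1.

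**Figure D3:**
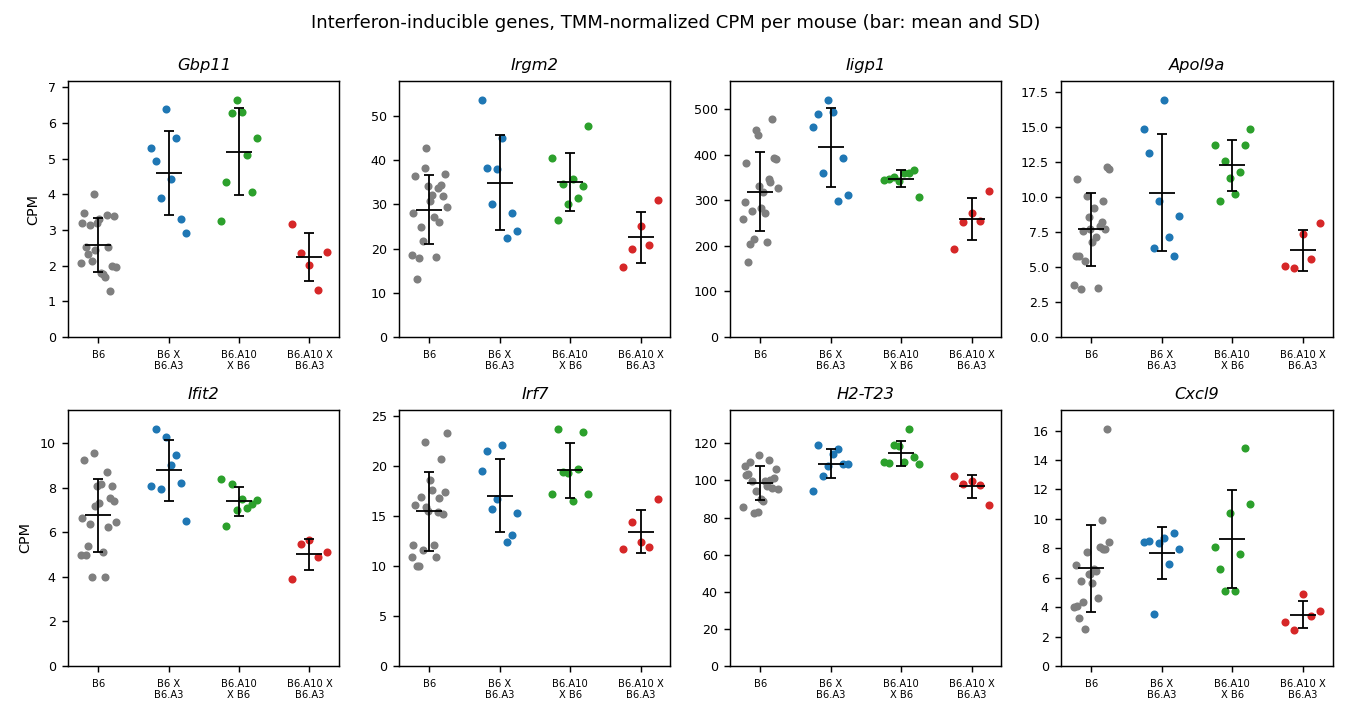
TMM-normalized CPM per mouse of 8 interferon-inducible genes in B6 (20 mice), the chromosome 3 CSS (8), the chromosome 10 CSS (8) and the double CSS (5), with bars for mean and SD. In all 8 panels the double mice lie within or near the range of B6, and for Gbp11, Apol9a, Ifit2, H2-T23 and Cxcl9 all 5 lie below the lowest mouse of the chromosome 10 CSS.

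RNA-binding and other antiviral effectors also had interactions below 0. Ifit2, which binds viral RNA, stood at 3.92, 5.47, 5.66, 4.86 and 5.13 CPM in the double mice, below every mouse of the chromosome 3 CSS (6.50 to 10.6 (median 8.62)) and of the chromosome 10 CSS (6.30 to 8.38 (median 7.36)), and 4 of the 5 lay within the range of B6 (3.98 to 9.53 (median 6.89)). Its interaction was -0.86 (SE 0.197) at an adjusted p = 0.00986 (edgeR). Ifit1 and Ifit3 had interactions of -1.22 and -1.03 (adjusted p = 0.0343 and 0.0412), which were not called without surrogate variables (0.0803 and 0.0698). Ifitm3, a membrane protein that blocks viral entry, stood at 71.6, 71.0, 88.3, 58.9 and 78.6 CPM in the double mice, 4 of which were below every mouse of the chromosome 3 CSS (83.6 to 123 (median 100.5)) and of the chromosome 10 CSS (80.5 to 102.8 (median 93.0)). Its interaction was -0.70 (SE 0.134) at an adjusted p = 0.00107 (edgeR). Parp14, an ADP-ribosyltransferase, Xaf1, a pro-apoptotic factor, Zbp1, a sensor of Z-form nucleic acid, Cmpk2, a mitochondrial nucleotide kinase, and Rtp4, a receptor chaperone, had interactions between -1.13 and -0.57. Of these 5, Parp14 and Xaf1 were called under all 13 alternatives. Ifi44, on chromosome 3, was the one listed member called both in the interaction (-0.74, adjusted p = 0.0468) and in the double CSS against B6 (0.47, adjusted p = 0.0319, edgeR). It rose by 0.87 in the chromosome 3 CSS, and its interaction was called in 5 of the 13 alternatives.

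Apol9a and Apol9b, interferon-inducible apolipoprotein L genes side by side on chromosome 15, had some of the smallest p. Apol9a (ENSMUSG00000057346, chromosome 15, 77403789 to 77411135, minus strand) stood at 5.05, 4.91, 7.33, 5.56 and 8.13 CPM in the double mice, against 5.75 to 16.9 (median 9.18) in the chromosome 3 CSS, 9.69 to 14.9 (median 12.2) in the chromosome 10 CSS and 3.46 to 12.1 (median 7.71) in B6. No double mouse reached the lowest mouse of the chromosome 10 CSS. The interaction was -1.53 (SE 0.253) at an adjusted p = 8.17e-05 (edgeR), with a rise of 0.98 in the chromosome 10 CSS and a difference of -0.04 from B6 in the double CSS. Apol9b had an interaction of -1.1 (SE 0.194) at an adjusted p = 0.000539 (edgeR). Both genes are near-identical copies, so that reads could be split between them, and both were called under all 13 alternatives.

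The chemokine Cxcl9, which attracts T cells and is induced by interferon gamma, stood at 3.01, 2.42, 4.89, 3.40 and 3.72 CPM in the double mice, 3.54 to 9.05 (median 8.38) in the chromosome 3 CSS, 5.06 to 14.8 (median 7.87) in the chromosome 10 CSS and 2.49 to 16.1 (median 6.35) in B6. All 5 double mice were below the median of B6 and below every mouse of the chromosome 10 CSS. Its interaction was -1.5 (SE 0.328) at an adjusted p = 0.00765 (edgeR), and 0.0529 without surrogate variables. Neither single CSS was called for Cxcl9 (adjusted p = 0.215 and 0.0913). Cxcl10, its neighbour in the genome, and Cd274, which encodes PD-L1, had interactions of -1.58 and -1.34 (adjusted p = 0.00931 and 0.00645) and, like Ddx60, Rnf213 and Zc3hav1 (-0.77, -0.64 and -0.46), were picked out after their values were seen.

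In antigen presentation, 3 genes had a called interaction below 0 (H2-T23, Tap1 and H2-T22) of 28 tested and 30 listed, beside 0.737% of all genes, and the median interaction was -0.384. The count was 1 without double mouse 1, 1 without double mouse 4 and 5 in the 41 mice alone. H2-T23, the non-classical class I gene that encodes Qa-1, stood at 102, 98.3, 99.9, 97.3 and 86.5 CPM in the double mice, all below the lowest mouse of the chromosome 10 CSS (109 to 128 (median 112)) and inside the range of B6 (82.6 to 114 (median 99.7)). Its interaction was -0.41 (SE 0.0826) at an adjusted p = 0.00201 (edgeR). Tap1, which carries peptides into the endoplasmic reticulum, stood at 10.8, 10.4, 13.8, 8.62 and 14.4 CPM in the double mice against 13.8 to 19.7 (median 15.5) in the chromosome 3 CSS and 13.4 to 17.6 (median 16.9) in the chromosome 10 CSS, with an interaction of -0.69 (SE 0.175) (adjusted p = 0.0215). H2-Q4 differed from these. It fell by 0.53 on the log2 scale in the chromosome 3 CSS and by 0.69 in the double CSS (adjusted p = 1.43e-05 and 7.93e-07, edgeR) with an interaction of -0.22 that was not called (adjusted p = 0.479). Class I genes are similar in sequence, and reads could be split among them.

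Markers of the cells that could carry these genes were measured beside them. In bulk liver, fewer cells of a type and less RNA per cell cannot be told apart. The 13 Kupffer cell and macrophage markers, all measured, summed to 449.6 to 625.5 CPM in the double CSS, 515 to 680 in the chromosome 3 CSS, 473 to 665 in the chromosome 10 CSS and 447.7 to 726 in B6. The 14 endothelial markers summed to 484.5 to 583, 486 to 617, 519 to 580.2 and 455 to 589.6 CPM in the same order. Of 11 T and NK cell markers 3 passed the filter on low counts, and they summed to 2.61 to 3.92 CPM in the double CSS against 1.58 to 3.41 in B6. By edgeR none of these markers had a called interaction, 2 of the Kupffer cell, 3 of the endothelial and 1 of the T and NK cell markers had an unadjusted p under 0.05, and the ranges of the 4 strains overlapped in each case. Of the 13 Kupffer cell and macrophage markers 12 lay above B6 in the chromosome 3 CSS (median 0.104) and 11 had an interaction below 0 (median -0.112), whereas their median was 0.017 in the chromosome 10 CSS and 0.01 in the double CSS. In the chromosome 10 CSS the macrophage receptor gene Marco was called lower, and Stab2 of sinusoidal endothelium was called higher. The part of these markers in the interferon result was not tested.

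Outside the interferon genes, interactions below 0 covered a mixed set. Neb, which encodes the muscle protein nebulin, stood at 33.3, 32.2, 58.2, 53.8 and 54.5 CPM in the double mice, 59.7 to 175 (median 81.7) in the chromosome 10 CSS, 39.6 to 67 (median 54) in the chromosome 3 CSS and 27.6 to 71.8 (median 47.3) in B6, with all double mice below the chromosome 10 CSS. Its interaction was -1.15 (SE 0.261) at an adjusted p = 0.00937 (edgeR), called under all 13 alternatives. Gm13773 and Gm13775, processed transcripts of unknown function on chromosome 4, had interactions of -1.46 and -1.84 (adjusted p = 0.0148 and 0.0192), neither called without surrogate variables, and similar copies could share their reads. Sult5a1, a sulfotransferase gene, had an interaction of -1.22 (adjusted p = 0.0192, edgeR; 0.117 without surrogate variables). Among enzymes of liver metabolism, Hsd3b7 of bile acid synthesis, Igfals, which carries IGF1 in blood, Gulo of ascorbate synthesis and Otc of the urea cycle had called interactions of -0.48, -0.83, -0.54 and -0.40. Their adjusted p without surrogate variables were 0.125, 0.391, 0.212 and 0.501 (edgeR), so that none of these 4 was called without them. Hsd3b7 was higher than B6 in all 3 strains, by 0.33, 0.46 and 0.31, each called.

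Of the 58 genes with interactions above 0, 28 were called lower than B6 in the chromosome 3 CSS and 33 in the chromosome 10 CSS, beside 1.76% and 2.97% of all genes. The interaction subtracts both single effects, so that low values in the single CSSs are partly fixed by the choice of these genes. In the double CSS 1 of them was called, Pcgf2. Slc35g1 (ENSMUSG00000044026, chromosome 19, 38395980 to 38405610, plus strand), of the SLC35 transporter family, was among the 58. It stood at 50.3, 54.3, 42.3, 49.7 and 49.7 CPM in the double mice, above every mouse of the chromosome 10 CSS (27.2 to 39.9 (median 36.7)), with 4 above every mouse of the chromosome 3 CSS (29.6 to 47.4 (median 38.6)) and all inside the range of B6 (37.2 to 78.6 (median 53.5)). The interaction was 0.87 (SE 0.162) at an adjusted p = 0.000753 (edgeR), and the adjusted p stayed between 0.000221 and 0.00642 over the 13 alternatives. Pole4, an accessory subunit of DNA polymerase epsilon, stood at 44.4, 36.1, 31.1, 32.1 and 28.4 CPM in the double mice, all above the chromosome 10 CSS (22.5 to 28.2 (median 24.2)), with an interaction of 0.65 (SE 0.122) (adjusted p = 0.000753).

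Several genes of this set encode regulators of hepatocyte expression or metabolism. Hnf4a, the nuclear receptor that maintains hepatocyte identity, stood at 599, 605, 662.7, 609 and 588 CPM in the double mice, 379.4 to 709 (median 495) in the chromosome 3 CSS, 393 to 614.02 (median 558.8) in the chromosome 10 CSS and 423 to 717 (median 638) in B6. All 5 double mice were above the median of both single CSSs, but the ranges overlapped. Its interaction was 0.48 (SE 0.124) at an adjusted p = 0.0265 (edgeR). Nr1i2, the xenobiotic receptor PXR, stood at 85.2, 90.8, 68.5, 66.5 and 62.7 CPM in the double mice against medians of 57.6 and 58.1 in the single CSSs and 69.0 in B6, with an interaction of 0.65 (SE 0.131) (adjusted p = 0.00270). Gata6, a zinc-finger transcription factor, had an interaction of 0.84 (SE 0.197) (adjusted p = 0.0114), with the double mice at 6.93, 5.65, 4.89, 5.56 and 7.10 CPM and 4 of them above every mouse of the chromosome 10 CSS (3.62 to 5.49 (median 4.75)). Plin5, a lipid-droplet protein, stood at 129.8, 117.2, 93.5, 85.4 and 67.2 CPM in the double mice, 41.5 to 95.3 (median 73.5) in the chromosome 3 CSS and 56.1 to 84.9 (median 68.6) in the chromosome 10 CSS, with an interaction of 0.87 (SE 0.196) at an adjusted p = 0.00931 (edgeR).

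The glucocorticoid target Fkbp5, a co-chaperone of the receptor, ranged from 109 to 144 (median 117.3) CPM in the double mice against 32.4 to 112 (median 78.7) in the chromosome 3 CSS and 50.2 to 122.1 (median 87.2) in the chromosome 10 CSS, with B6 at 58.5 to 195 (median 128). Its interaction was 1.15 (SE 0.317) at an adjusted p = 0.0417 (edgeR), but 0.116 without double mouse 1 and 0.0758 without double mouse 2. Fkbp5 was the 1 called gene of 21 glucocorticoid-responsive genes, beside 1.17% of all genes, and 1 call is not a result about that list. Nrg4, a secreted ligand of ErbB receptors, had log2 differences from B6 of -1.23 in the chromosome 3 CSS and -1.03 in the chromosome 10 CSS, both called. The double CSS differed from B6 by -0.87, which was not called (adjusted p = 0.0525), and the interaction was 1.38 (SE 0.319) (adjusted p = 0.0104; 0.0529 without surrogate variables). Il1r1, the interleukin-1 receptor, had an interaction of 1.21 (SE 0.316) (adjusted p = 0.0272). Atp1b1, a sodium pump subunit, had one of 0.89 (SE 0.226) (0.0224), and Vasn, which binds transforming growth factor beta, one of 0.92 (SE 0.242) (0.0279, edgeR). Atp1b1 was called in 11 of the 13 alternatives, with adjusted p up to 0.0663. Il1r1 and Vasn were each called in 10, with adjusted p up to 0.125 and 0.0821. Tcf24, a helix-loop-helix gene, had an interaction of 1.58 (SE 0.446) (adjusted p = 0.0489; 0.104 without surrogate variables). Gm23935, annotated as a miRNA gene on chromosome 16, stood at 687, 262, 606, 568 and 2430.3 CPM in the double mice. Its interaction of 1.75 (SE 0.397) (adjusted p = 0.00931, edgeR) was lost without double mouse 5, at an adjusted p = 0.289.

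**Figure D4:**
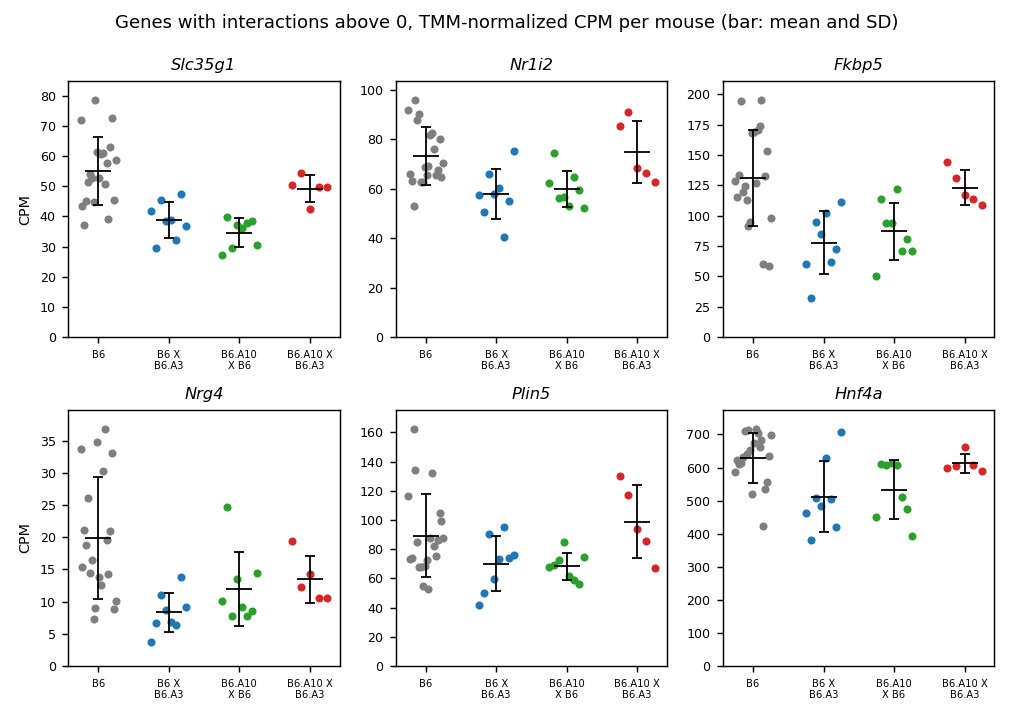
TMM-normalized CPM per mouse of 6 genes with interactions above 0 in B6 (20 mice), the chromosome 3 CSS (8), the chromosome 10 CSS (8) and the double CSS (5), with bars for mean and SD. The double mice lie within the range of B6 in every panel, and for Slc35g1 all 5 lie above the highest mouse of the chromosome 10 CSS.

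Most calls in the double CSS against B6 lay on the substituted chromosomes themselves. Of the 106 genes called in the double CSS against B6, 74 lay on chromosome 3 or 10, or 5.49% of the genes there, beside 32 of 11942 elsewhere (0.268%). These counts rest on adjusting p separately on and off the substituted chromosomes, and with adjustment over all genes together 39 of 92 called genes lay on chromosome 3 or 10. On chromosome 3, 20 of 44 were higher and 24 lower, with a median interaction of -0.043 in the 44. On chromosome 10, 12 of 30 were higher and 18 lower, with a median interaction of -0.027 in the 30, both given as a description of genes chosen for their calls in the double CSS. Counted from the single strains, 27 of the 88 chromosome 3 genes called in the chromosome 3 CSS and 20 of the 71 chromosome 10 genes called in the chromosome 10 CSS were also called in the double CSS, with the same B6 mice in each comparison.

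Asic5 on chromosome 3, a bile acid-sensitive ion channel gene, stood at 61.2, 54.6, 46.5, 57.5 and 50.2 CPM in the double mice and 37.8 to 63.0 (median 47.7) in the chromosome 3 CSS, against 6.90 to 27.1 (median 13.2) in B6 and 9.26 to 17.6 (median 14.7) in the chromosome 10 CSS, with no overlap between carriers and non-carriers of A/J chromosome 3. The double CSS was higher than B6 by 1.66 (SE 0.177) at an adjusted p = 1.2e-13 (edgeR), and the interaction was 0.25 (SE 0.276) (adjusted p = 0.742). Tnfsf10, which encodes the death ligand TRAIL, stood at 11.6, 15.8, 20.1, 16.1 and 17.4 CPM in the double mice and 16.5 to 24.6 (median 22.1) in the chromosome 3 CSS. Every double mouse was above B6 (3.43 to 10.9 (median 7.31)), but 3 were below every mouse of the chromosome 3 CSS, and the interaction of -0.52 (SE 0.168) was not called (adjusted p = 0.0917). Car3, a carbonic anhydrase of liver and fat, was higher than B6 by 1.20 (SE 0.241) in the double CSS (adjusted p = 0.000212), but not without surrogate variables (adjusted p = 0.157). Sucnr1, the succinate receptor, fell by 0.99 on the log2 scale (adjusted p = 0.000162), with 4 of 5 double mice below the lowest B6 mouse.

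On chromosome 10, Vnn1, a pantetheinase and PPARalpha target, stood at 42.8, 26.1, 16.6, 25.2 and 41.3 CPM in the double mice and 25.1 to 50.1 (median 36.6) in the chromosome 10 CSS, against 31.6 to 111 (median 69.9) in B6. Of the double mice 3 were below every B6 mouse. Its log2 difference from B6 was -0.94 in the chromosome 10 CSS and -1.15 in the double CSS (adjusted p = 0.00178 and 0.00190), with an interaction of -0.23 (SE 0.355) that was not called. Nhsl1, Vnn3 and Commd2 had interactions of 0.01 (SE 0.180), -0.03 (SE 0.150) and 0.04 (SE 0.113), which were not called. Socs2, a feedback inhibitor of growth hormone signalling, stood at 3.92, 2.86, 4.11, 5.21 and 4.04 CPM in the double mice and at 3.46 to 25.9 (median 10.2) in B6. It was called lower in the double CSS, with a log2 difference of -1.32 (SE 0.427) (adjusted p = 0.0465), and the interaction of -0.93 (SE 0.570) was not called (adjusted p = 0.5, edgeR).

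A few genes lay farther from B6 in the double CSS than the sum of both single effects. Tbc1d30 (ENSMUSG00000052302, chromosome 10, 121263820 to 121351278, minus strand), a Rab GTPase-activating protein gene on chromosome 10, stood at 7.61, 4.66, 5.31, 4.52 and 5.72 CPM in the double mice against 6.78 to 22.1 (median 13.6) in B6, 9.36 to 21.5 (median 14.4) in the chromosome 3 CSS and 7.38 to 21.0 (median 11.1) in the chromosome 10 CSS. Mice 2 to 5 were below every mouse of the other 3 strains. Neither single CSS differed from B6 by a called amount (0.04 and -0.22), the double CSS differed by -1.28 (adjusted p = 2.55e-05), and the interaction was -1.10 (SE 0.308) (adjusted p = 0.0468, edgeR). The interaction was called in 6 of the 13 alternatives, with adjusted p from 0.0226 to 0.0979. Adh6-ps1, an alcohol dehydrogenase pseudogene on chromosome 3, stood at 8.96, 10.4, 8.77, 7.92 and 6.79 CPM in the double mice, 6.68 to 13.7 (median 11.5) in the chromosome 3 CSS, 11.9 to 28.5 (median 19) in the chromosome 10 CSS and 7.72 to 21.5 (median 16.7) in B6. Its log2 difference from B6 was -0.44 in the chromosome 3 CSS and -0.99 in the double CSS, both called, with an interaction of -0.83 (SE 0.212) (adjusted p = 0.0215; 0.137 without surrogate variables), and reads could be shared with related dehydrogenase genes. Pcgf2, a Polycomb gene on chromosome 11 with few counts, stood at 1.81, 1.80, 1.28, 1.11 and 2.03 CPM in the double mice and 0.288 to 1.58 (median 0.800) in B6. It had an interaction of 1.21 (SE 0.327) (adjusted p = 0.0354, edgeR), with an adjusted p = 0.260 without surrogate variables.

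Other genes on chromosomes 3 and 10 also had called interactions. Ddo, which oxidizes D-aspartate, stood at 12, 11.2, 11.6, 9.31 and 10 CPM in the double mice, below every mouse of the chromosome 3 CSS (12.1 to 15.9 (median 14.2)), with an interaction of -0.65 (SE 0.149) (adjusted p = 0.00773) that was called under all 13 alternatives. Arg1, the last enzyme of the urea cycle, stood at 2663, 2675, 2622, 2902 and 1947 CPM in the double mice, 4 of which were above every mouse of the chromosome 3 CSS (1412 to 2592 (median 2143)) and of the chromosome 10 CSS (1723 to 2519 (median 2243)). Its interaction was 0.42 (SE 0.108) at an adjusted p = 0.0215 (edgeR), and 0.180 without surrogate variables. Dot1l, a histone H3 methyltransferase, and Zbtb7a, a transcriptional repressor, had interactions of 0.61 and 0.57 (adjusted p = 0.00515 and 0.00886), and Fmo5, a monooxygenase, one of 0.82 (0.0195). Echdc1, which removes ethylmalonyl-CoA, and Fbxo7, of a ubiquitin ligase, had interactions of -0.43 and -0.35 (adjusted p = 0.00886 and 0.0282, edgeR). Of these 6 genes, Fmo5 alone was also called without surrogate variables. Fmo5 was not called without double mouse 1 (adjusted p = 0.0629) or without double mouse 2 (0.0736, edgeR).

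**Figure D5:**
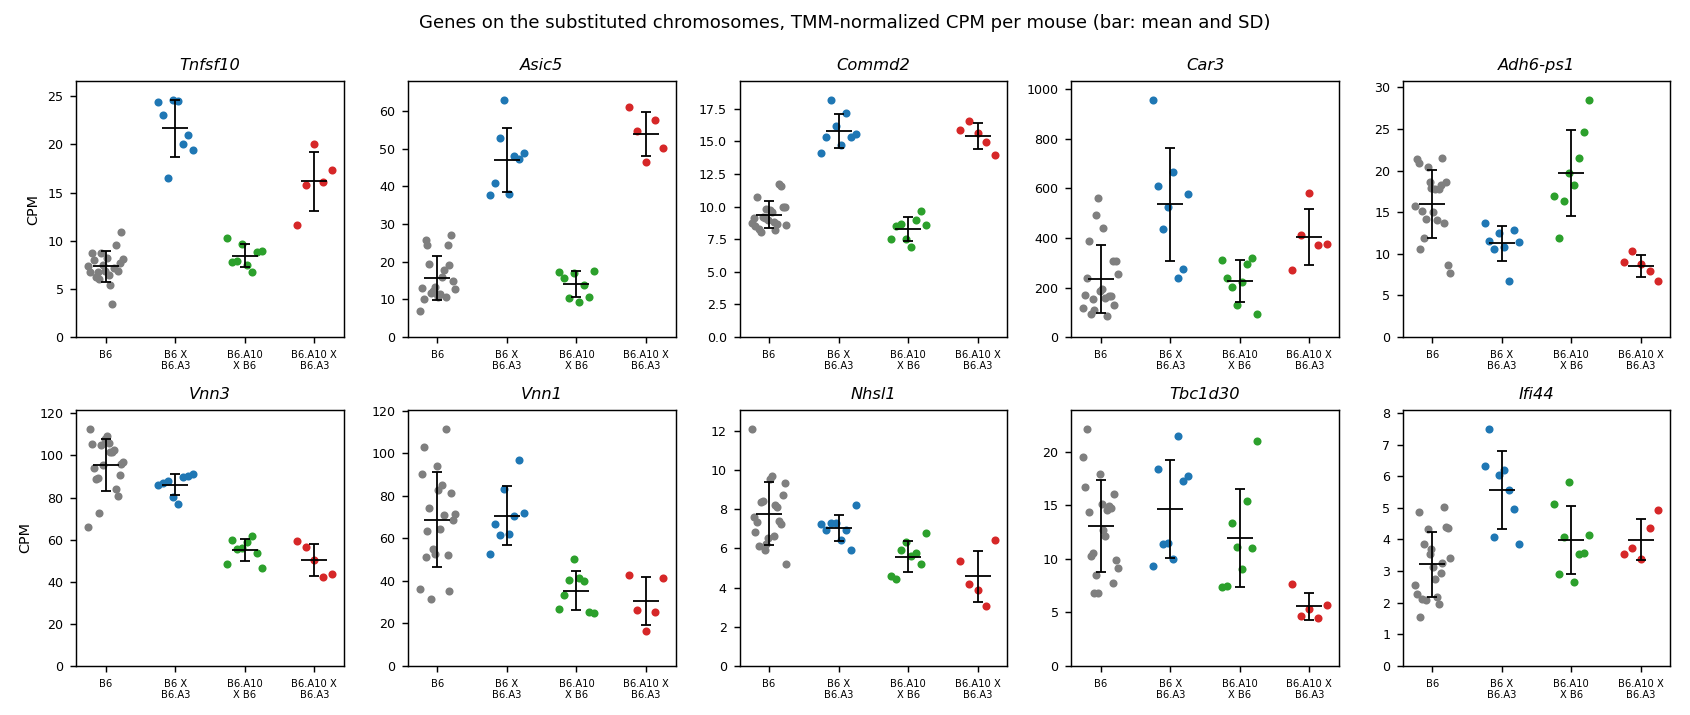
TMM-normalized CPM per mouse of 10 genes on chromosome 3 (Tnfsf10, Asic5, Commd2, Car3, Adh6-ps1, Ifi44) or chromosome 10 (Vnn3, Vnn1, Nhsl1, Tbc1d30), with bars for mean and SD. The double mice lie with the single CSS that carries the same A/J chromosome for Asic5, Commd2 and Vnn3, and 4 of the 5 lie below every other mouse for Tbc1d30.

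Away from chromosomes 3 and 10, 21 of the 32 genes called in the double CSS against B6 were higher and 11 lower. Aqp8, a water channel, stood at 16.9, 18.4, 18.9, 12.2 and 19.6 CPM in the double mice against 6.10 to 14.2 (median 9.34) in B6, 11.1 to 25 (median 17.9) in the chromosome 3 CSS and 5.57 to 21.7 (median 13.1) in the chromosome 10 CSS, and 4 double mice were above every B6 mouse. It was higher by 0.98 (SE 0.181) (adjusted p = 0.000897, edgeR), with rises of 0.93 and 0.75 in the single CSSs and an interaction of -0.70 (SE 0.269) that was not called. Gstp1, a glutathione transferase, was higher by 0.84 (SE 0.196) (adjusted p = 0.0201), and C730036E19Rik, a gene without a known function, by 0.97 (SE 0.213) (adjusted p = 0.0128, edgeR). Krt23, a keratin, and Nipal1, a magnesium transporter, were lower, with log2 differences of -1.59 and -1.44 (adjusted p = 0.0335 and 0.0140). Without surrogate variables the adjusted p was 0.548 for Gstp1, 0.39 for C730036E19Rik, 0.192 for Krt23 and 0.0992 for Nipal1.

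Metabolic gene lists held few called interactions and few calls in the double CSS, as did all genes tested (1.17% and 0.798%). Lists of this size would hold few or no calls at those shares, so that an absence of calls is not a result about their genes. Of 12 genes of gluconeogenesis, 19 of glycolysis, 25 of cholesterol synthesis, 22 of insulin and glucagon signalling and 25 of the circadian clock, none had a called interaction and none was called in the double CSS, with median interactions of 0.115, 0.186, -0.196, 0.056 and 0.005. In the same order 3, 6, 7, 4 and 1 genes had an unadjusted interaction p under 0.05 by edgeR, and 3, 5, 3, 5 and 3 an unadjusted p under 0.05 in the double CSS. Over all genes tested, 1921 (14.5%) had an unadjusted interaction p under 0.05, and 1607 (12.1%) one in the double CSS. In the single CSSs, 3 genes of gluconeogenesis (Ppargc1a, Got1 and Foxo1) were lower in the chromosome 3 CSS, and 2 genes of glycolysis were lower in each with 1 higher in the chromosome 10 CSS. Of 33 genes of amino acid catabolism and the urea cycle, 11 were lower in the chromosome 3 CSS, among them Arg1, Cps1 and Tat, beside 1.76% of all genes, and 2 were lower in the chromosome 10 CSS, Tdo2 and Arg1, beside 2.97%. In the list 2 genes had a called interaction, Arg1 above 0 and Otc below 0. Pericentral, Wnt-dependent genes were higher in the chromosome 3 CSS in 6 of 16 cases, beside 1.94% of all genes, with a median of 0.335, while the double CSS had a median of 0.132 and no call, and Gulo was the 1 gene with a called interaction. Among 30 PPARalpha targets of fatty acid oxidation, Plin5 had a called interaction and 28 interactions were above 0, with a median of 0.251. Over all genes tested 6851 of 13289 were above 0, with a median of 0.007. The major urinary proteins, male-biased pheromone carriers encoded by near-identical genes on chromosome 4, rose in 10 of 18 cases in the chromosome 3 CSS (median 0.931) and in 11 in the chromosome 10 CSS (median 0.992), beside 1.94% and 3.66% of all genes. In the double CSS none was called (median 0.643), and the median interaction was -1.352 with 1 call, Mup2 (-1.0 (SE 0.259), adjusted p = 0.0254, edgeR), against 0.215 without surrogate variables. In the fit of the 41 mice alone 9 members had a called interaction, all below 0, and Mup2 was not called without double mouse 5. Reads of these genes could be split among copies.

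The double CSS was also compared with each single CSS directly. Adding A/J chromosome 10 to the chromosome 3 CSS gave 19 called genes (0.143%), 6 higher (0.0452%) and 13 lower (0.0978%). Of these, 17 were on chromosome 10 (2.79% of its genes) and 2 elsewhere (0.0158%), Gm23935 and the chromosome Y gene Gm47283, which was singled out after its values were seen. Adding A/J chromosome 3 to the chromosome 10 CSS gave 54 (0.406%), 21 higher (0.158%) and 33 lower (0.248%), of which 28 were on chromosome 3 (3.8% of its genes) and 26 elsewhere (0.207%). The 26 included Gbp11, Apol9a, Apol9b, Irgm2, Cxcl9, H2-T23 and Neb, all lower in the double CSS, with differences of -1.12, -1.02, -0.76, -0.66, -1.09, -0.27 and -0.96 on the log2 scale. Gbp3 and Gbp7, among the 28 on chromosome 3, differed by -0.52 and -0.50 (adjusted p = 0.0422 and 0.0422, edgeR). Against the chromosome 3 CSS the same 9 genes differed by -0.84, -0.55, -0.27, -0.53, -0.98, -0.13, -0.38, -0.59 and -0.66, and none of those differences was called. Both comparisons share the 5 double mice, and whether they differ from each other was not tested beyond the interaction itself.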

How the data were processed

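Total RNA of the caudate liver lobe was sequenced, with one library per mouse. Per the methods of the study, the authors used TopHat2 on mm10 and sent the reads left unmapped to a genome individualized for A/J. HTSeq assigned them to GENCODE vM7 genes, and the authors removed duplicate reads, outlier samples and genes with low counts. The deposited values are raw counts of 13289 genes in 154 mice, and the file holds 0 columns of other series. The methods of the study also state that the reads came from several flow cells. The flow cell or sequencing date of each mouse is not given in the sources used here, so that no batch could be examined.

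Counts were normalized by TMM and fitted in all 154 mice with 8 main effects, 15 interactions and 5 surrogate variables (R 4.3.3, edgeR 4.0.16, sva 3.50.0), followed by the quasi-likelihood test. P-values were adjusted by Benjamini-Hochberg separately for genes on and off the substituted chromosomes, and the 47 genes without a GENCODE vM21 position were counted as elsewhere. CPM values are normalized by TMM and not adjusted for surrogate variables, whereas log2 differences are. The labels name separate mice but no shared litters or replicate numbers. P-values set each difference against the variation between mice within strains, estimated over all 154 mice after fitting the surrogate variables.

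The alternatives were 0 or 10 surrogate variables, DESeq2 size factors, the DESeq2 1.42.0 Wald test, at least 15 counts in 75% of mice, the 41 mice alone, adjustment over all genes together, legacy=FALSE in edgeR, and leaving out each double mouse. Leaving out each other mouse in turn from the fit of the 41, and counting interferon-stimulated genes under every alternative, were added after seeing the data. The fitting script was tested on simulated data. Genes were named by rule. Among called genes whose mean log2 CPM reached 2, the rule took the 10 strongest interactions of each sign. Under the same limit it took the 6 highest and 6 lowest against B6. Without that limit it took the 10 called genes of smallest interaction p and the 10 of smallest p on chromosomes 3 and 10. Called or leading members of the lists were also named. The members, lists and alternatives were chosen with earlier results of these data known. The columns hold no comparisons by the authors. Promoters more than 1000 bases from the GENCODE gene start were not used. Some genes that the rule names are not reported here.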

Additional observations from a re-analysis of the deposited data

Results flagged for a closer look

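In 9 of 192 groups examined (64 genes, each in the 2 single CSSs and the double CSS), 1 mouse stood apart by a gap that exceeded the 95% limit of Dixon's test as a share of the group's range. Chance flags about 1 in 20 groups. In the double CSS these were Krt23 (share 0.848), where mouse 1 was at 3.92 CPM, and Gm23935 (share 0.804), where mouse 5 was at 2430.3 CPM. In the chromosome 3 CSS they were Raet1d (share 0.825, far mouse at 8.37 CPM), Cxcl9 (0.61, 3.54 CPM), Socs2 (0.577, 19 CPM) and Adh6-ps1 (0.565, 6.68 CPM). In the chromosome 10 CSS they were Neb (share 0.663, far mouse at 174.6 CPM), Nrg4 (0.606, 24.7 CPM) and Iigp1 (0.598, 306.5 CPM). Of the far mice, 6 were the highest and 3 the lowest of their group.

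The effect of one substitution differed with the presence of the other in 156 genes, by the interaction term of edgeR's quasi-likelihood test.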

How the results depend on the processing

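The number of called interactions depended on the processing. None of the 48 named interaction genes reversed under the 13 alternatives, and 18 were called under all of them. These genes were chosen by their calls with 5 surrogate variables, and the alternatives refit the same mice or all but 1 of them. A reversal was therefore unlikely from the start, and its absence is given as a description. Without surrogate variables 0.534% of genes had a called interaction (1.17% with 5), 0.324% were called in the double CSS against B6 (0.798%), 0.918% in the chromosome 3 CSS (3.7%), and the calls held 6 interferon-stimulated genes (16) and 14 genes of all lists (32). With 10 surrogate variables 1.23% were called in the double CSS. In the 41 mice alone 1.84% had a called interaction, 119 of these genes among the 156, and 1.75% were called in the chromosome 3 CSS. The DESeq2 Wald test called 1.79% as interactions, all 156 among them. Of the called interactions 37.2% were above 0, but 54.9% without surrogate variables and 52.0% in the 41 mice. With adjustment over all genes together 60.9% of the calls against B6 were higher, against 50%.

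Leaving out each double mouse in turn gave interactions in 0.61% to 1.26% of genes, calls against B6 in 0.376% to 0.911% and 10 to 17 interferon-stimulated genes. The lowest counts came without mouse 1 for the interaction and the interferon-stimulated genes and without mouse 5 against B6, where 0.527% were called without mouse 3. Leaving out each other mouse from the fit of the 41 gave 1.03% to 2.83%, with 1.03%, 1.07%, 1.13% and 2.83% without B6 mice 1, 12, 16 and 19 and 1.06% without mouse 3 of the chromosome 10 CSS. The interferon-stimulated genes called ranged from 6 to 16 over these fits, beside 12 in the 41 mice. The cause of these shifts was not tested. No paired analysis was possible because the labels carry no replicate numbers. With 5 double mice the median standard error of an interaction was 0.141 on the log2 scale, and an interaction that was not called is not shown to be 0.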

Other observations

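Female-biased liver genes were below B6 in all 3 strains by their medians, at -0.849 in the chromosome 3 CSS, -0.268 in the chromosome 10 CSS and -0.681 in the double CSS. Beside 6408 of 13289 genes below 0 in the double CSS, all 18 female-biased genes tested lay below 0 there. Their median interaction was 0.509, with none called by edgeR and 6 at an unadjusted p under 0.05. Male-biased genes had medians of 0.354, 0.299 and 0.182 in the same order and a median interaction of -0.334, with none called and 5 at an unadjusted p under 0.05. Cytoplasmic ribosomal protein genes had an interaction above 0 in 72 of 77 cases, with a median of 0.141, none called and 14 at an unadjusted p under 0.05. Over all genes tested, 6851 of 13289 interactions were above 0, with a median of 0.007, and 14.5% had an unadjusted p under 0.05 by edgeR. Members of a list were measured in the same 5 double mice and are not separate observations.

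Gm47283, annotated on chromosome Y and singled out after its values were seen, was at 0.603, 0, 0.194, 0.139 and 0.282 CPM in double mice 1 to 5. The 4 strains with a B6.A3 dam had the lowest medians of the 24 strains, at 0.194 CPM in the double CSS, 0.682 in (B6.A8 X B6.A3)F1, 1.19 in (B6.A5 X B6.A3)F1 and 1.6 in (B6 X B6.A3)F1. The other 20 strains had medians of 1.72 to 7.53 CPM, and B6 one of 4.56. Similar copies of this gene could share its reads.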
